A study of Mus musculus with 6 samples.

Results

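Transcripts of the renin-angiotensin system and of the succinate receptor were examined in isolated kidney glomeruli of mice lacking dendrin, a cytoplasmic protein of the podocyte slit diaphragm. The genes were Ren1, Agt, Ace, Agtr1a, Agtr1b, Agtr2, Enpep, Atp6ap2 and Sucnr1. The first 8 were chosen by pathway, whereas Sucnr1 was selected on its difference between knockout and control glomeruli in these same arrays. Differences of all members are therefore given as a description, without a test. A member was any probe set that the array annotation pairs with 1 of these genes and no other. The rule found 11 of the 45101 probe sets on the array, belonging to 8 of the 9 genes. No probe set was paired with Ren1 alone in the annotation used, and the renin gene itself was not analysed here.

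Glomeruli of 3 dendrin knockout mice and 3 wild type littermates were compared, with 1 array per mouse. All mice were 13 months old and of 129S6SvEv/C57BL6 origin. In the knockout line the dendrin coding sequence was replaced in all cells by a cassette with eGFP and a neomycin resistance gene. The targeted stem cells were from 129S6SvEv/C57BL6, and the paper states that the mice used were backcrossed for several generations onto C57BL/6. No treatment is named in the labels of either group. Values are GCRMA values, the background-corrected and normalized signal of a probe set on the log2 scale, and differences are knockout minus control.

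The renin-angiotensin system controls blood pressure and glomerular filtration. Renin, released by granular cells of the afferent arteriole at the entrance of the glomerulus, cleaves angiotensinogen (Agt) to angiotensin I, which angiotensin-converting enzyme (Ace) turns into angiotensin II. Angiotensin II acts on the receptors encoded by Agtr1a, Agtr1b and Agtr2 and is trimmed by aminopeptidase A (Enpep). Atp6ap2 encodes the prorenin receptor, which is also an accessory subunit of the vacuolar proton pump. Sucnr1 (also Gpr91) encodes a G protein-coupled receptor of the citric acid cycle intermediate succinate, known in the kidney as a trigger of renin release.

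The genotype was clear in the arrays. Ddn, the dendrin gene, was at 3.80, 3.81 and 3.80 in knockout and at 12.22, 12.81 and 12.31 in control glomeruli. Podocyte genes marked the samples as glomeruli, with a median of 13.4 to 13.7 per array over the 6 podocyte markers measured, all 6 above log2 4. The female transcript Xist was dim on all 6 arrays, and the Y-linked genes Eif2s3y, Kdm5d and Uty were above log2 4 on all of them. Control 2 stood apart from the other arrays. Its median over 8 genes of the proximal tubule was 8.32, against 5.65 to 7.06 on the others, and its median over 12 macrophage and leukocyte genes was 8.04, against 10.4 to 11.4. In such bulk samples, fewer cells of a type and less RNA per cell cannot be told apart.

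Of the members, Sucnr1 had the largest difference, and the angiotensin receptor Agtr1a, the degrading enzyme and the prorenin receptor differed little. The converting enzyme Ace was measured less precisely, with standard errors of 0.30 and 0.48 in its probe sets. Sucnr1 was higher in knockout glomeruli by 1.13 (standard error 0.15), or 2.19-fold. The other 7 member probe sets with a mean of at least log2 4 differed by 0.010 to 0.24 in size, 4 of them upwards and 3 downwards. The 3 remaining probe sets, those of Agt, Agtr1b and Agtr2, had a mean under log2 4, which is termed dim below. In the 8 probe sets that were not dim, knockout and control values were separated in 1, that of Sucnr1, whereas 13.7% of all 19619 such probe sets on the array were separated. A fold over 1.5 together with an unadjusted limma p under 0.05 was the criterion used here, while the study's methods take the p from SAM (significance analysis of microarrays). It was met by 1 of the 11 member probe sets, again that of Sucnr1, and by 0.180% of all probe sets. As Sucnr1 was picked by this contrast, nothing can be read from either count.

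**Figure D1:**
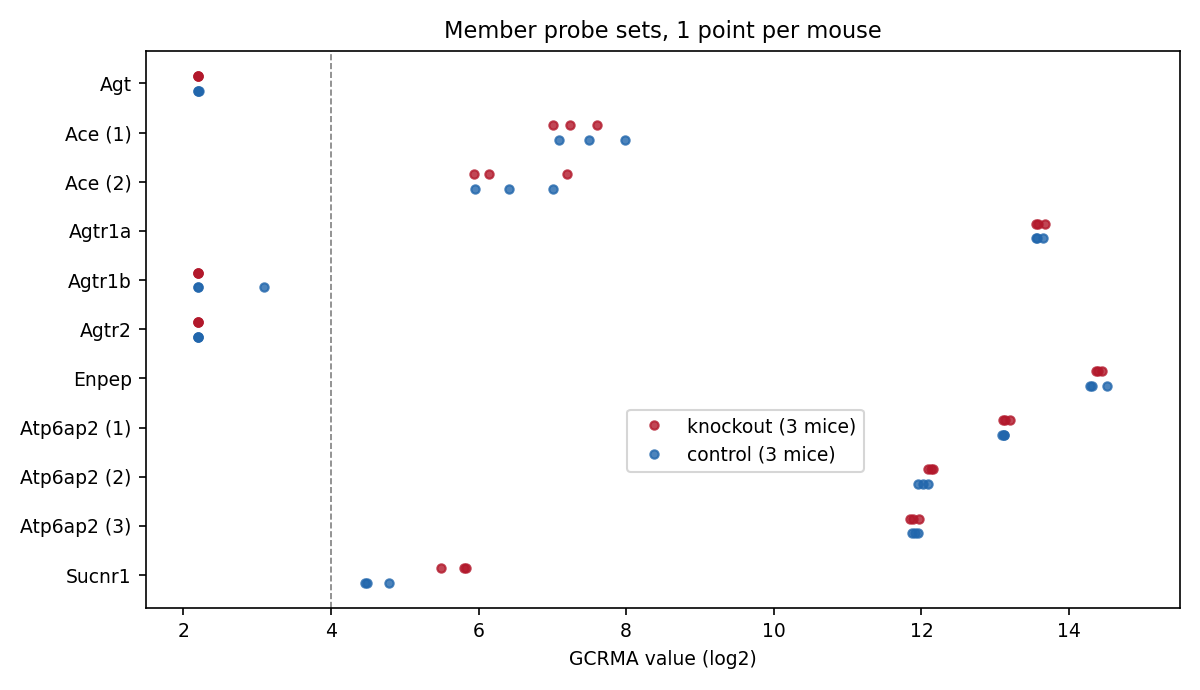
GCRMA values (log2, x axis) of the 11 member probe sets (rows), with 1 point per mouse, red for knockout and blue for control; numbers in brackets tell probe sets of 1 gene apart, and the dashed line marks log2 4. Red and blue points are separated only for Sucnr1, and Agt, Agtr1b and Agtr2 lie left of the line; rows are probe sets of different sensitivity and are not to be compared in level.

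Angiotensinogen, the substrate of renin, gave no signal above the lowest level in the glomeruli. Its probe set was at 2.20 in the 3 knockout mice and in control 1 and 2, and at 2.21 in control 3. The lowest value of the whole table is 2.20, the level at which GCRMA leaves probe sets without signal. Levels of Agt could thus not be compared, and the position of its probes on the transcript was not examined.

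Ace, which encodes the converting enzyme of endothelium and tubular brush border, was measured by 2 probe sets that both varied more between mice than between genotypes. The brighter one was at 7.01, 7.23 and 7.60 in knockout and at 7.50, 7.08 and 7.98 in control glomeruli. The difference was -0.24 (standard error 0.30), with means of 7.28 ± 0.30 and 7.52 ± 0.45 (SD, n = 3). The other probe set was at 6.15, 5.94 and 7.20 in knockout and at 6.41, 5.95 and 7.02 in control glomeruli, a difference of -0.029 (standard error 0.48). The groups overlapped in both, and knockout 3 and control 3 had the highest values of their groups in both. With single arrays left out, the brighter probe set stayed lower in knockout, from -0.46 without control 2 to -0.0095 without control 3, whereas the other ran from -0.41 without knockout 3 to 0.25 without control 3. On knockout 3 and control 3 the 12 macrophage and leukocyte genes also stood highest, by a median of 0.74 and 0.77 over the mean of the arrays, against 0.32 or less on the others. Of 10 endothelial genes, all measured, 9 were lower and 1 higher in knockout, with a median of -0.13. Against the mean of the arrays, their median was lowest on knockout 3 (-0.11) and highest on control 3 (0.15). The part of either in the values of Ace was not tested.

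Agtr1a, the gene of the main angiotensin II receptor of the mouse kidney, had a strong signal in all 6 mice and hardly varied. It was at 13.58, 13.67 and 13.55 in knockout and at 13.65, 13.56 and 13.55 in control glomeruli. Values of the 2 groups overlapped fully within a range of 0.12. The difference was 0.010 with a standard error of 0.046, or 1.01-fold. Its sign changed with single arrays left out, over a range of -0.024 to 0.041.

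The other angiotensin receptor genes gave no signal beyond the low level. Agtr1b, the second type 1 receptor gene of rodents, was at 2.20 on 5 arrays and at 3.09 on control 2, the array with the strongest tubular signal. Agtr2, the gene of the type 2 receptor on the X chromosome, was at 2.20 in all 6 mice. These 2 probe sets are dim, and no fold can be given for them.

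Enpep, which encodes the aminopeptidase that turns angiotensin II into angiotensin III and is present in podocytes and the proximal tubule, was likewise close in both groups. Its values were 14.39, 14.37 and 14.45 in knockout and 14.29, 14.51 and 14.31 in control glomeruli. Control 2 had the highest and control 1 the lowest value, so that the knockout mice lay between control mice. The difference was 0.035 (standard error 0.073), and from -0.0075 to 0.11 with single arrays left out. On control 2, the 6 podocyte genes were higher by a median of 0.10 and the proximal tubule genes by 1.36 than the mean of the arrays, and on control 1 the podocyte genes were at -0.16. Their part in the Enpep values was not tested.

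Atp6ap2, the prorenin receptor gene on the X chromosome, was measured by 3 probe sets. The brightest was at 13.13, 13.11 and 13.20 in knockout and at 13.09, 13.12 and 13.11 in control glomeruli. The second was at 12.13, 12.08 and 12.15 in knockout and at 11.95, 12.08 and 12.03 in control glomeruli, with the lowest knockout value just under the highest control value. The third was at 11.89, 11.84 and 11.96 in knockout and at 11.87, 11.91 and 11.96 in control glomeruli. All 3 overlapped between the groups. The differences were 0.037 (standard error 0.027), 0.099 (standard error 0.042) and -0.014 (standard error 0.042), of which the largest was 1.07-fold. The sign of the third was not stable, as it was 0.0051 after median centring of the arrays and ran from -0.046 to 0.013 with single arrays left out.

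**Figure D2:**
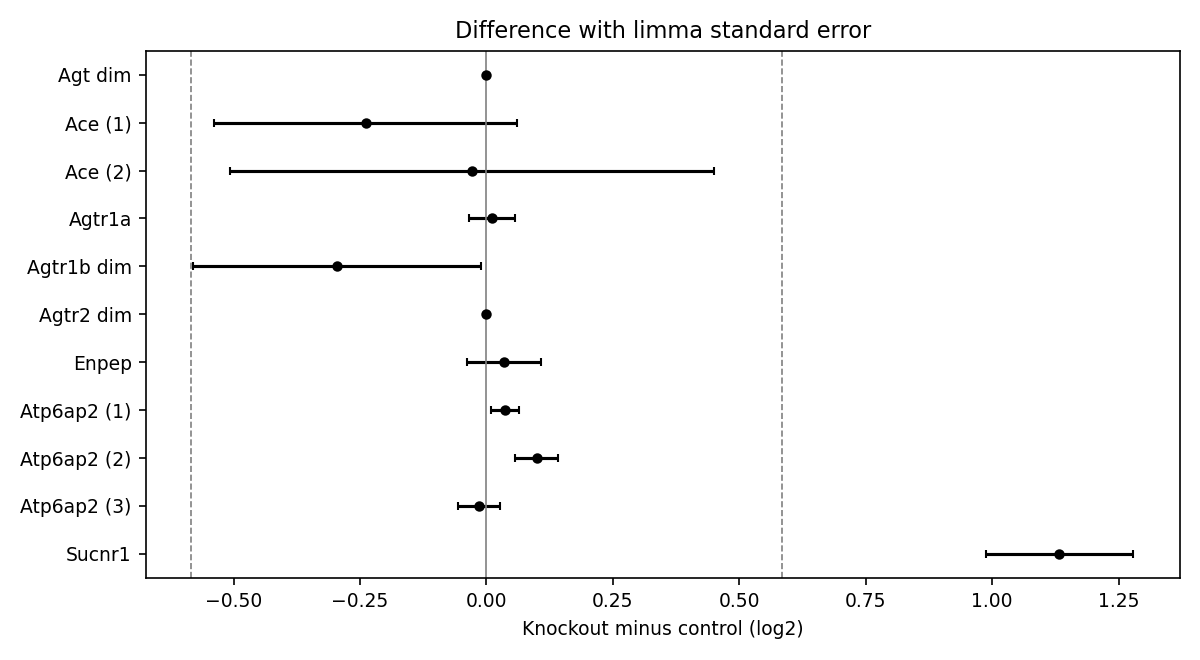
Difference between knockout and control (log2, x axis) of each member probe set (rows), with bars of 1 limma standard error; dashed lines stand at a fold of 1.5 in either direction. Sucnr1, at 1.13, lies beyond the line and the other 10 probe sets lie between the lines.

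Sucnr1 was at 5.49, 5.83 and 5.81 in knockout and at 4.49, 4.78 and 4.46 in control glomeruli. The lowest knockout value was 0.71 above the highest control value, while the values of 1 group spanned 0.34 and 0.33. The means were 5.71 ± 0.19 in knockout and 4.58 ± 0.18 in control glomeruli (SD, n = 3). The signal was weak, with control values little above log2 4. When 16 was added to the unlogged values, which shrinks differences of weak signals, the difference was 0.78, or 1.71-fold. With each array left out in turn it stayed between 1.07 and 1.24, and without control 2 it was 1.24. The gene lies on chromosome 3 (GRCm38.p6), as do Agtr1b and Enpep, and is represented by a single probe set, so that no second probe set could be set beside it.

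Several cell types carry Sucnr1, so the marker genes of other cells are given beside it. Of 6 smooth muscle genes, 4 were not dim, and all 4 were higher in knockout, with a median difference of 0.43. Their median level was 9.80 to 9.94 in knockout and 9.28 to 9.66 in control glomeruli, while Cnn1 and Lmod1 were dim. Tagln, an actin-binding protein of smooth muscle, was higher by 0.68 (standard error 0.24) and met the fold and p criterion. Control 2 had the highest value of the control mice for Sucnr1 and for the smooth muscle list. The same held for the podocyte and tubule lists, but not for the mesangial, endothelial and leukocyte lists. Among the knockout mice, Sucnr1 was lowest on knockout 1, whereas the smooth muscle list was highest there (9.94, against 9.80 and 9.81). The podocyte, proximal tubule and distal tubule lists were lowest on knockout 1, as was Sucnr1. All 12 macrophage and leukocyte genes were higher on average in knockout glomeruli, by a median of 0.66. Their median level was 10.8, 10.4 and 11.2 in knockout and 10.8, 8.04 and 11.4 in control glomeruli. Control 2 alone lay below all knockout arrays. The 8 proximal tubule genes had a median difference of -0.012. The 5 mesangial genes measured had a median of -0.00031, among which the growth factor receptor gene Pdgfra was at -0.59 (standard error 0.17) and had 2 probe sets past the fold and p criterion. The 6 podocyte genes were all higher, by a median of 0.15. Other lists were lower in knockout. Of the 10 endothelial genes, 9 were lower, by a median of -0.13 over the list, and 4 were separated. Of all probe sets that were not dim, 13.7% were separated. The 3 genes of the macula densa and thick limb that were not dim had a median of -0.44 and the 2 of the distal tubule and collecting duct one of -1.30, with control 2 the highest array in both. The part of any of these cells in the difference of Sucnr1 was not tested.

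**Figure D3:**
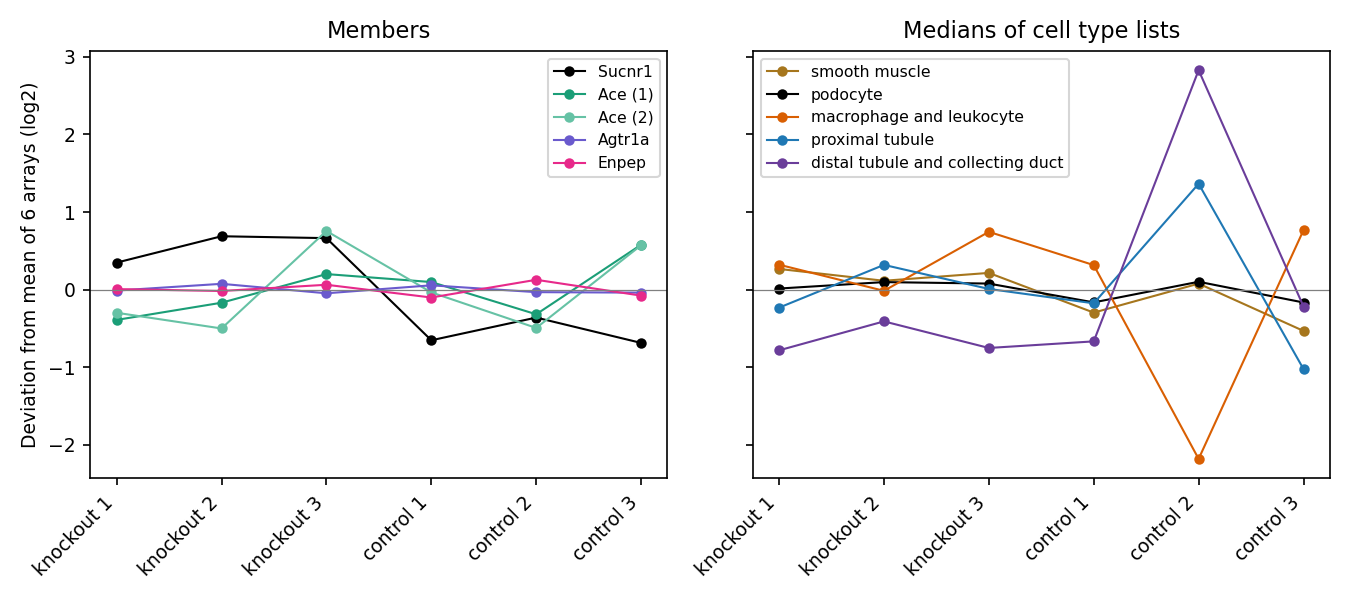
Deviation from the mean of the 6 arrays (log2, y axis) for each mouse (x axis). Left, member probe sets; right, medians over the genes of 5 cell type lists that are not dim. Sucnr1 is above 0 on the knockout arrays and below 0 on the control arrays, Ace is highest on knockout 3 and control 3, and control 2 is apart in the tubule and leukocyte lists.

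By their pattern over the 6 arrays, the genes most like Sucnr1 were Tmem54, Rai14, Slc41a2, Adcy1 and Cenpv, with a Pearson r of 0.97 to 0.98 among 5020 probe sets that were not dim and ranged over more than 0.5. As 6 arrays in 2 groups share their grouping, such an r mostly reflects a separation of the groups, and it is given without a p. Tmem54, which encodes a membrane protein, was at 9.98, 9.99 and 10.05 in knockout and at 9.41, 9.66 and 9.46 in control glomeruli. Slc41a2, a magnesium transporter gene, was higher by 0.50, the adenylyl cyclase gene Adcy1 by 0.38, Cenpv by 0.37 and Rai14 by 0.36. In all 5 of these, as in Sucnr1, control 2 was the highest of the control mice. As they were picked for their likeness over these arrays, that order is no separate result.

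The further genes of the renin-angiotensin pathway, of renin release, of angiotensin II signalling, of succinate metabolism and of receptors related to Sucnr1 were compared in the same fit. These 5 lists name 98 genes, of which 86 had 185 probe sets. None of the 185 met the fold and p criterion with limma or with SAM, the test of the study's methods, where 0.180% of all probe sets did with limma. With limma, 10 of them had an unadjusted p under 0.05, as did 3.63% of all probe sets. None passed an adjusted p of 0.05 (Benjamini-Hochberg over all probe sets), the lowest being 0.805. Of the array 0.00222% passed, a single probe set, which was that of Ddn (adjusted p of 0.020 from limma). The paper, which used SAM, reports that no probe set was under 0.05 after correction.

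Among the other genes of the pathway, 11 of the 16 measured were not dim, 3 higher and 8 lower in knockout, with a median of -0.034 against 0.030 over all 10379 genes that were not dim. Groups were separated in 2 of these 11, where 13.7% of all probe sets that were not dim were separated. Counts of separated genes in the lists below are to be set against the same share. Klk1, the kallikrein gene that frees kinins and is made in the distal nephron, had the largest difference, -1.21 (standard error 0.57). It was at 9.84, 10.14 and 10.16 in knockout and at 10.60, 12.43 and 10.76 in control glomeruli, every knockout value being below every control value. Control 2 was far above the rest, and the difference without it was -0.63 (standard error 0.14). On the same array the distal tubule genes were higher by a median of 2.83 than the mean of the arrays, and their part in Klk1 was not tested. Of the other 3 probe sets of Klk1, 1 was at -1.20, 1 at -0.20 and 1 was constant. Thop1, an oligopeptidase that forms angiotensin (1-7), differed by 0.40 (standard error 0.18), Anpep, the aminopeptidase that acts on angiotensin III, by -0.31 (standard error 0.28), and Mtus1, which encodes a protein bound by the type 2 receptor, by -0.14 (standard error 0.057), with -0.15 and -0.19 in its other probe sets, of which the latter overlapped. The mast cell protease genes Cma1, Cpa3 and Mcpt4, the leukocyte protease gene Ctsg and the angiotensin (1-7) receptor gene Mas1 were dim.

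Genes that govern renin release were in balance, with 12 higher and 12 lower in knockout of the 24 that were not dim, a median of -0.0088 and 1 separated. Npr1, the receptor of atrial natriuretic peptide that restrains renin release, was at 10.47, 9.77 and 7.69 in knockout and at 7.41, 9.18 and 7.65 in control glomeruli. Its difference of 1.23 had a standard error of 0.97 and the groups overlapped. Gja5, which encodes the gap junction protein connexin of renin cells and endothelium, was at 6.37, 5.26 and 4.45 in knockout and at 6.10, 6.59 and 6.16 in control glomeruli. Its difference was -0.92 (standard error 0.56), with knockout 1 among the control values. Without knockout 1 it was -1.43 (standard error 0.34). The sterol receptor gene Nr1h3 (0.72, standard error 0.99) was lowest on control 2, and the vitamin D receptor gene Vdr differed by -0.42 (standard error 0.30). Ptgs2, the inducible cyclooxygenase of the macula densa, differed by 0.40 (standard error 0.30) in its brighter probe set, which was at 0.69 without knockout 2, and by -0.058 (standard error 0.21) in the other, while Nos1, the nitric oxide synthase of the macula densa, was dim. Rgs5, a gene of pericytes and renin cells and the only renin cell marker measured, differed by 0.042, and its other 3 probe sets by -0.074 to 0.036.

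Among genes of angiotensin II signalling and response, 7 were higher and 8 lower in knockout of 15 that were not dim, with a median of -0.0099 and 2 separated. Rgs2, which encodes a brake on the G protein of the type 1 receptor, was at 13.10, 13.15 and 13.20 in knockout and at 12.86, 13.08 and 12.89 in control glomeruli. All knockout mice lay above all control mice, by a mean of 0.21 (standard error 0.072, adjusted p = 1). This was its brightest probe set. Of its other 3, 1 was separated (0.30) and 2 overlapped (0.22 and -0.0043). Rcan1, an inhibitor of calcineurin, differed by 0.23 (standard error 0.088, adjusted p = 1) in its brighter probe set, which was separated, and by -0.070 in the other, which overlapped. Cybb, a subunit of the phagocyte oxidase, and Arrb2, an arrestin, were at 0.45 (standard error 0.90) and 0.17 (standard error 0.39), both lowest on control 2. Plcb1, a phospholipase gene of the list, was lower in knockout. Its brightest probe set was at -0.14 (standard error 0.082) and overlapped. Of its other probe sets that were not dim, those at -0.43 and -0.40 were separated and that at -0.27 overlapped.

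Genes of succinate metabolism differed by -0.20 to 0.11 in their brightest probe sets. Of the 13 that were not dim, 7 were higher and 6 lower, with a median of 0.028, and 3 were separated. Succinate dehydrogenase, the enzyme that consumes succinate in mitochondria, is built from 4 subunits, all of which were measured. Sdha was higher by 0.028 (standard error 0.049), Sdhb by 0.041 (standard error 0.053), Sdhc by 0.079 (standard error 0.028) and Sdhd by 0.11 (standard error 0.040), each with an adjusted p of 1. These are values of the brightest probe set of each gene, which was separated between the groups for Sdhc and Sdhd, the larger difference being 1.08-fold. The second probe set of Sdhc (0.094) and that of Sdhd (0.021) overlapped. Sdhaf2, another gene of the list, was at 0.087 (standard error 0.079) in its brighter probe set. The other was at 0.22 (standard error 0.12), and both overlapped. The dicarboxylate transporter genes Slc13a3 and Slc25a10 were at -0.20 (standard error 0.35) and -0.18 (standard error 0.16), and Slc13a2 and Slc13a5 were dim.

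**Figure D4:**
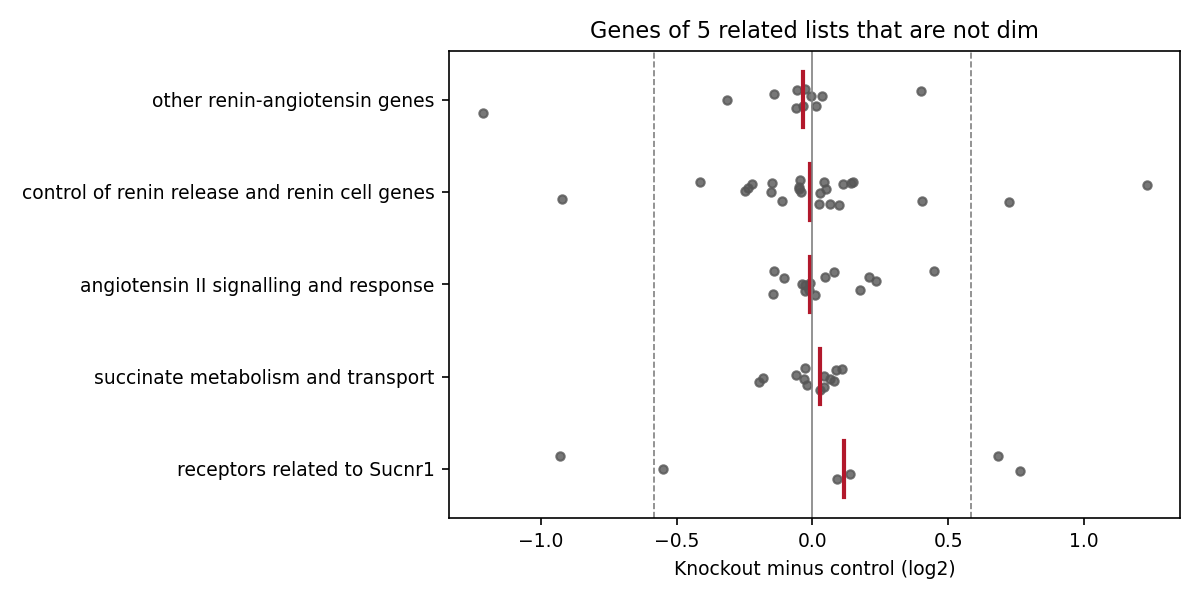
Difference between knockout and control (log2, x axis) of the genes of 5 lists (rows) that are not dim, 1 point per gene, taken from its brightest probe set; the red bar is the median of the list and dashed lines stand at a fold of 1.5. Points beyond the lines, such as Klk1 at -1.21 and Npr1 at 1.23, did not reach an unadjusted p of 0.05.

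Of 12 receptors related to Sucnr1 that were measured, 6 were not dim, and P2ry1 alone was separated between the groups. P2ry1, a receptor of ADP, was at 7.10, 7.16 and 7.00 in knockout and at 7.64, 7.72 and 7.55 in control glomeruli. Its difference of -0.55 (standard error 0.065), or 1.46-fold, fell short of the fold criterion and had an adjusted p of 0.805 from limma. The leukocyte receptors P2ry6 (0.76, standard error 0.80) and P2ry13 (0.68, standard error 1.29) were lowest on control 2, and P2ry10 was at -0.93 (standard error 0.64). The ketoglutarate receptor gene Oxgr1 was dim.

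P2ry1 is also the second protein-coding gene from Sucnr1 along chromosome 3 in the order of GRCm38.p6, and this neighbourhood was examined after the values of both had been seen. Of the 8 protein-coding genes on either side, 10 were measured and 6 were not dim. Mbnl1, a splicing factor gene between Sucnr1 and P2ry1, was at 13.57, 13.55 and 13.59 in knockout and at 13.59, 13.43 and 13.55 in control glomeruli, a difference of 0.043. Rap2b, Arhgef26 and Dhx36 were at 0.11, 0.21 and -0.18, each with overlapping groups. Sucnr1 and P2ry1 thus differed in opposite directions, on either side of a gene that hardly differed.

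**Figure D5:**
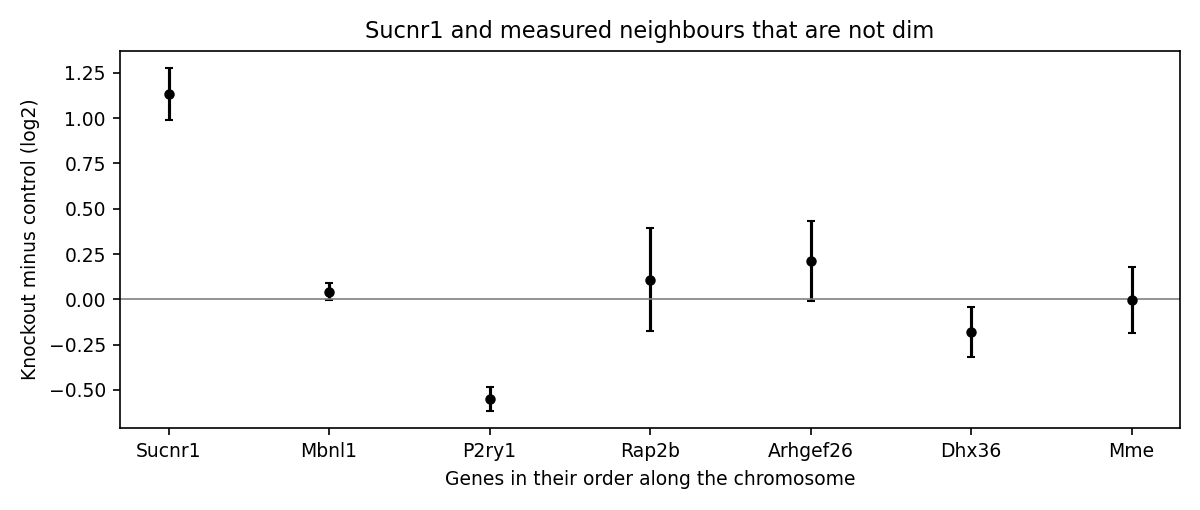
Difference between knockout and control (log2, y axis, bars of 1 limma standard error) of Sucnr1 and of its 6 measured neighbours that are not dim, in their order along chromosome 3 (x axis). Sucnr1 is at 1.13, P2ry1 at -0.55, and the other 5 lie between -0.18 and 0.21.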

How the data were processed

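The deposited values were made by the authors from array intensities by means of GCRMA (version 2.30.0) and are log2 probe set values after background subtraction, quantile normalization and summarization. Raw intensities were not used here. Arrays were grouped by the genotype label, and the number of arrays limits the precision. Probe sets were paired with genes by the platform annotation, 34958 of 45101 with a single gene. Current symbols and the order of genes came from the GRCm38.p6 annotation. A gene with several probe sets is represented in lists by that with the highest mean. The genotypes were compared by lmFit and eBayes of limma (version 3.58.1, R 4.3.3; two-sided, with neither filter nor covariate), with 4 residual and 0.312 prior degrees of freedom. P values were adjusted after Benjamini and Hochberg across the whole array. Probe sets with a mean under log2 4 are called dim.

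The members and lists were chosen with earlier results of these data known. Named genes are all members, the genes of each list past the criterion and up to 4 others with the largest difference that are not dim, and the 5 most like Sucnr1. Further genes, among them marker genes, subunits and neighbours, were named after their values were seen. The fit was tested on simulated data. Alternatives were SAM, an intensity trend with a robust prior, filters on mean or range, centring, renewed quantile normalization, an offset of 16, weights per array, a block for the replicate number, a fold over 2 and the omission of each array.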

Additional observations from a re-analysis of the deposited data

How the results depend on the processing

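Sucnr1 was the only member probe set past the criterion in all settings tried. Its difference of 1.13 was 0.777 with an offset of 16 on the unlogged scale, and ran from 1.07 to 1.24 with single arrays left out. Of the values of the other 10 member probe sets under other settings, 108 moved by no more than the spread between mice. The other 2, those of Agt and Agtr2 under median centring, moved by at most 0.019. Omitting a single array cannot move a difference beyond that spread, and a block for the replicate number leaves it unchanged. For those settings the count of 108 is therefore no sign of stability. Over the whole array, 81 probe sets passed, 14 at a fold over 2, 141 among probe sets with a range over 0.1, and 78 to 140 with single arrays left out, the highest without control 2. Of the pathway lists, 0 probe sets passed on all arrays, 2 with the range filter (both of Klk1) and 0 to 2 with single arrays left out. These were of Creb1 and Gja5 without knockout 1, Ptgs2 and P2ry1 without knockout 2, Klk1 without control 2 and P2ry1 without control 3. With the replicate number as a replicate block, 64 probe sets passed, 1 member and 0 of the lists. Arrays of the same number deviated together with r of 0.095, 0.35 and 0.25, and those of different numbers with r of -0.32 to 0.094. The deviations were taken from the mean of each group, so that a positive r for some pairs brings a negative r for others. These r values therefore cannot decide whether mice were paired. The labels name no pairs, and the main fit took none. Whether mice of the same number belong together is thus not known. The weak signal of Sucnr1 and the dim probe sets of Agt, Agtr1b and Agtr2 limit what these arrays can show.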
